A study of Mus musculus with 16 samples.

Results

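Fc receptors bind the constant part of antibodies and tell immune cells what an antibody has captured. The 8 genes described here, Fcer2a, Fcmr, Fcgr2b, Fcgr3, Fcgr4, Fcer1g, Fcrl5 and Fcrla, were taken by name from the 11713 genes counted in a CITE-seq study of mouse spleen, and all 8 were detected. They were followed across 4 B cell gates, natural killer (NK) cells, monocytes, neutrophils, macrophages, conventional dendritic cells (DC) and plasmacytoid DC, with T cells as a population in which these receptors are scarce. Their RNA was set beside the counts of an antibody tag labelled CD16/32. CITE-seq counts, for each droplet holding a cell, both the messenger RNAs, as unique molecular identifiers (UMIs), and the oligonucleotide tags of antibodies bound to the cell surface.

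The spleens came from 9-month-old female BALB/cJ mice, and the labels give neither a treatment nor a genotype beyond the strain. The 16 samples formed 4 groups of 4, namely RNA and antibody-tag (ADT) libraries of sources named Main1 and Main2. The tables did not separate the 4 samples of a group, so Main1 and Main2 each counted as 1 library. The labels do not say whether they are different animals. The p-values below rest only on how differences between gates vary from 1 library to the other, which may be technical. That variation was pooled over gates and moderated across genes.

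In mouse, Fcgr3 encodes CD16 and Fcgr4 a related receptor, both of which activate cells through the gamma chain encoded by Fcer1g, an adaptor with an immunoreceptor tyrosine-based activation motif (ITAM). Fcgr2b encodes CD32, the inhibitory IgG receptor that recruits the phosphatase SHIP-1 and is the classical Fc gamma receptor of B cells. Fcer2a encodes CD23, the low-affinity IgE receptor of follicular B cells, Fcmr an IgM receptor, and Fcrl5 and Fcrla are Fc receptor-like genes of B lineage cells, Fcrla being an intracellular protein. Mouse antibodies for CD16/32 commonly bind the products of both Fcgr3 and Fcgr2b, so the tag alone does not tell an activating from an inhibitory receptor.

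The libraries held 3179 droplets (Main1) and 3918 droplets (Main2) with 7964712 and 10174799 UMIs and 30 antibodies, and shared 14 barcodes. Cells were gated on antibodies other than CD16/32. B cells (CD79b-positive, CD3-negative) were divided by IgD and by the top 25% of CD21/35 into marginal zone B (IgD-low, CD21/35-high), IgD-high CD21/35-high B, IgD-low CD21/35-low B and follicular B (IgD-high, CD21/35 lower). Gate sizes ran from 9 plasmacytoid DC droplets in Main1 to 1115 IgD-low CD21/35-low B droplets in Main2. Levels are given as CPM, the usual depth scaling of UMI counts, which sets the UMIs of a gene against all UMIs of that gate in that library, and pairs of values are Main1 and then Main2. Clustering of the RNA without the 8 genes placed 84 of 95 monocyte-gate, 109 of 123 NK-gate, 57 of 73 neutrophil-gate and 1671 of 1681 follicular-gate droplets in the class of their gate. Of the 77 macrophage-gate droplets 46 were red pulp macrophage-like, 12 monocyte-like and 5 basophil or mast-like, and the summed erythroid markers in that gate were 39410 and 84160 CPM. Of the 137 conventional DC droplets 25 were DC1-like and 74 DC2-like, 18 were monocyte-like and 15 plasmacytoid DC-like. Among its 588 droplets the T gate held 10 monocyte-like, 4 neutrophil-like, 2 red pulp macrophage-like, 1 DC1-like, 2 DC2-like and 1 plasmacytoid DC-like droplets. Levels of different genes were not set against each other, since their capture can differ, and the shares of Fcgr3 in the UMIs of Fcgr3 and Fcgr2b given below are for comparing gates.

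The stretches around the transcript starts of Fcgr3, Fcgr4, Fcgr2b and Fcer1g are shown because these 4 genes lie near one another and are the members whose RNA is set beside the CD16/32 antibody, with the activating relative and the shared adaptor. In the GENCODE annotation of GRCm38, 6 of the 8 genes are on chromosome 1, and 5 of them lie within 316.8 kb (chr1:170917576-171234365). From low to high coordinates these are Fcrla (170917576-170927583, minus strand), Fcgr2b (170958617-170976547, minus), Fcgr4 (171018920-171029761, plus), Fcgr3 (171051174-171064935, minus) and Fcer1g (171229572-171234365, minus). Fcmr is at chr1:130865669-130880791 on the plus strand, Fcrl5 at chr3:87435773-87500678 on the plus strand and Fcer2a at chr8:3681737-3694175 on the minus strand. The windows run from 250 bases before to 50 bases after a RefSeq transcript start (GRCm38.p6), 5′ to 3′ on the gene's strand. Capitals mark GAGGAA, or TTCCTC where it is read on the other strand, the core bound by PU.1, an ETS family factor of myeloid and B cells.
Fcgr3, chr1:171059354-171059653, minus strand: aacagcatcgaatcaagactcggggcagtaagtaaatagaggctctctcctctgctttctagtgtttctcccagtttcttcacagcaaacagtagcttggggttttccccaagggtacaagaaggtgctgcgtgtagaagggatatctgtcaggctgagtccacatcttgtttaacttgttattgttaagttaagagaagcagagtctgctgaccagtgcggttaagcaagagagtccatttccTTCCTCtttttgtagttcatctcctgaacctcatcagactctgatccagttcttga
Fcgr4, chr1:171018676-171018975, plus strand: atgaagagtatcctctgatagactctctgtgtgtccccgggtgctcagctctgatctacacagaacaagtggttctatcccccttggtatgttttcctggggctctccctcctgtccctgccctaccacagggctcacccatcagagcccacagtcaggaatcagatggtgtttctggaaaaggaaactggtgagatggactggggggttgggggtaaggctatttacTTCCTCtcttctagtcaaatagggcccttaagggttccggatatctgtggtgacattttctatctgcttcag
Fcgr2b, chr1:170976022-170976321, minus strand: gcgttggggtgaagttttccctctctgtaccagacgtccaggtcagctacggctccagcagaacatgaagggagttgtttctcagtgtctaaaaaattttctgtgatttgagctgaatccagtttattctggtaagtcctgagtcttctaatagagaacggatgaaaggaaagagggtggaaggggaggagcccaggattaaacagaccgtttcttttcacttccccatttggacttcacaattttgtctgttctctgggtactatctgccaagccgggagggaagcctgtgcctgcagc
Fcer1g, chr1:171234300-171234599, minus strand: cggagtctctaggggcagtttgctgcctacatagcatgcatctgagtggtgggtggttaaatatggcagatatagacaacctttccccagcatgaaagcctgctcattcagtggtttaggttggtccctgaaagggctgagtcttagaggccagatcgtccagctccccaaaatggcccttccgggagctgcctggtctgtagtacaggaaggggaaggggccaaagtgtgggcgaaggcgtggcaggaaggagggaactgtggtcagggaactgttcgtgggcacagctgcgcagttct

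The core began at -6 from the start shown for Fcgr3, which is -15 from its other RefSeq start, and at -22 in Fcgr4, and the same letters began at -36 in Fcmr and -37 in Fcrla. They were not in these windows of Fcgr2b, Fcer1g and Fcrl5 or in the 3 windows of Fcer2a. On either strand the core occurred in 9289 of 32851 RefSeq promoter windows (28.3%), so a match is a description of the letters and not a site. Fcgr3 and Fcgr2b are alike in sequence: 166 of the 1627 stretches of 50 bases in Fcgr3 transcripts (10.2%) also occurred in Fcgr2b transcripts, of which 0 lay in the last 500 bases of Fcgr3 transcripts and 33 in the last 500 bases of Fcgr2b transcripts (2.25% of the stretches there). No stretch of that length was shared by any other pair of members.

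The gamma chain gene Fcer1g was high in every non-B gate apart from T cells. It stood at 3199 and 2362 CPM in macrophages, 2986 and 2861 CPM in monocytes, 2035 and 2302 CPM in neutrophils, 1702 and 1832 CPM in NK cells, and 1031 and 1156 CPM in conventional DC, against 24.1 and 26.0 CPM in follicular B cells. Plasmacytoid DC had 695 and 781 CPM from 9 and 11 droplets. Each library of these 6 gates lay above both libraries of every B gate, where Fcer1g ran from 12.1 CPM (marginal zone B, Main1) to 38.5 CPM (IgD-low CD21/35-low B, Main1). A UMI of Fcer1g was present in 97.9% of monocyte-gate droplets, 97.3% of neutrophil-gate, 94.8% of macrophage-gate, 91.1% of NK-gate and 79.6% of conventional DC droplets. In B gates the share was 3.08% to 5.45%, below the 10.5% of T-gate droplets, and was read as background for the gates as wholes. Median depths were 1506 to 2629 UMIs in B gates and 2447.5 UMIs in the T gate, which also held the myeloid-like droplets counted above. A B-like RNA cluster of 313 droplets led by Bhlhe41 was higher, at 68.7 and 79.1 CPM with a UMI in 14.7% of droplets, against 34.9 CPM or less in every other B-like cluster.

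Over follicular B cells, edgeR's quasi-likelihood test with Benjamini-Hochberg adjustment gave Fcer1g log2 fold changes of 6.82 in monocytes (SE 0.235, adjusted p = 7.05e-32), 6.75 in neutrophils (SE 0.236, adjusted p = 7.28e-32), 6.58 in macrophages (SE 0.235, adjusted p = 4.95e-31), 5.80 in NK cells (SE 0.231, adjusted p = 7.80e-29) and 5.40 in conventional DC (SE 0.228, adjusted p = 3.35e-27). These comparisons, like those of the other genes over follicular B, share the follicular libraries. Set against monocytes instead, Fcer1g was lower in conventional DC (log2 fold change -1.42, SE 0.183, adjusted p = 2.39e-08), while in neutrophils (-0.07, adjusted p = 0.918) and macrophages (-0.24, adjusted p = 0.625) the difference did not pass the test.

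Fcgr3, the activating IgG receptor CD16, was highest in monocytes, neutrophils and macrophages. Macrophages had 709 and 435 CPM, neutrophils 370 and 306 CPM and monocytes 458 and 572 CPM, against 0.688 and 2.66 CPM in follicular B cells, which is 1 and 4 UMIs in 809 and 872 droplets. The macrophage and monocyte libraries overlapped, the neutrophil libraries lay below both, and all 6 lay above those of the other gates. NK cells were next, with 74.0 and 91.3 CPM from 6 and 13 UMIs, then conventional DC with 35.2 and 13.3 CPM from 7 and 3 UMIs. Plasmacytoid DC had no Fcgr3 UMI in 20 droplets, which allows a share of up to 15% of droplets with one.

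A UMI of Fcgr3 was found in 67.4% of monocyte-gate, 65.8% of neutrophil-gate and 61.0% of macrophage-gate droplets, in 13.01% of NK droplets and in 5.84% of conventional DC droplets, against 0.297% of follicular B droplets. The T gate, at a median of 2447.5 UMIs per droplet, had 2.21%, and NK droplets had a median of 1574 UMIs. The T share was uneven, 0.749% in Main1 and 3.43% in Main2, and summed neutrophil markers in the T gate were 253 CPM in Main1 and 1882 CPM in Main2. The part of neutrophil RNA in the T value was not tested. The conventional DC value rested on few droplets, and in DC2-like droplets of the RNA clustering Fcgr3 had 1 UMI in 90 droplets and in DC1-like droplets 2 UMIs in 35. Red pulp macrophage-like droplets had 392 and 381 CPM of Fcgr3, with a UMI in 43.1% of droplets. That was below the 453 and 482 CPM of monocyte-like droplets, whereas the gates overlapped. Neutrophil-like droplets had 348 and 335 CPM.

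The rise over follicular B cells was 8.06 on the log2 scale in monocytes (SE 0.370, edgeR adjusted p = 3.82e-26), 7.97 in macrophages (SE 0.439, adjusted p = 2.24e-22), 7.81 in neutrophils (SE 0.459, adjusted p = 2.23e-21), 5.17 in NK cells (SE 0.751, adjusted p = 2.21e-07) and 3.61 in conventional DC (SE 0.905, adjusted p = 0.00198). With droplets of the matching RNA class alone, the conventional DC call was lost (adjusted p = 0.827), and after thinning each droplet to 1000 UMIs no Fcgr3 UMI was left in that gate. Against monocytes, Fcgr3 was lower in conventional DC (log2 fold change -4.44, SE 0.374, adjusted p = 3.57e-14), whereas the differences in neutrophils (-0.25, adjusted p = 0.653) and macrophages (-0.09, adjusted p = 0.941) did not pass. Fcer1g was seen in 63 of 64 monocyte, 48 of 48 neutrophil, 47 of 47 macrophage and 16 of 16 NK droplets with Fcgr3, in gates where 91.1% to 97.9% of all droplets held it, so these counts say nothing of pairing within a droplet.

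Fcgr4, the other activating IgG receptor measured, was sparse and myeloid. It reached 49.5 and 82.0 CPM in macrophages (3 and 10 UMIs), 42.1 and 76.5 CPM in neutrophils (5 and 10 UMIs), 13.3 and 30.1 CPM in monocytes (2 and 5 UMIs) and 20.1 and 35.4 CPM in conventional DC (4 and 8 UMIs), against 0 and 0.666 CPM in follicular B cells (0 and 1 UMI). The 8 libraries of these 4 myeloid gates lay above all B, NK and T libraries. NK cells, which carried Fcgr3, had 0 Fcgr4 UMIs in 123 droplets, allowing a share of up to 2.44% of droplets with a UMI. A UMI was found in 16.4% of neutrophil, 12.99% of macrophage, 7.37% of monocyte and 6.57% of conventional DC droplets, against 0.340% of T droplets. The monocyte gate takes droplets positive for Ly6C and CD11b, and the wider monocyte-like RNA class of 171 droplets had 63.1 and 81.2 CPM of Fcgr4 (46 UMIs), above the gate and above the 29.01 and 42.6 CPM of the neutrophil-like class.

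The rises over follicular B cells were 7.15 in neutrophils (SE 0.932, edgeR adjusted p = 9.45e-09), 6.84 in macrophages (SE 0.977, adjusted p = 1.42e-07), 5.70 in conventional DC (SE 0.991, adjusted p = 8.43e-06) and 5.34 in monocytes (SE 1.16, adjusted p = 3.07e-04). The size of these folds rests on 1 follicular UMI. Compared with monocytes, Fcgr4 did not pass in neutrophils (log2 fold change 1.81, adjusted p = 0.129), macrophages (1.501, adjusted p = 0.375) or conventional DC (0.36, adjusted p = 0.905), where monocytes are those of the gate.

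**Figure D1:**
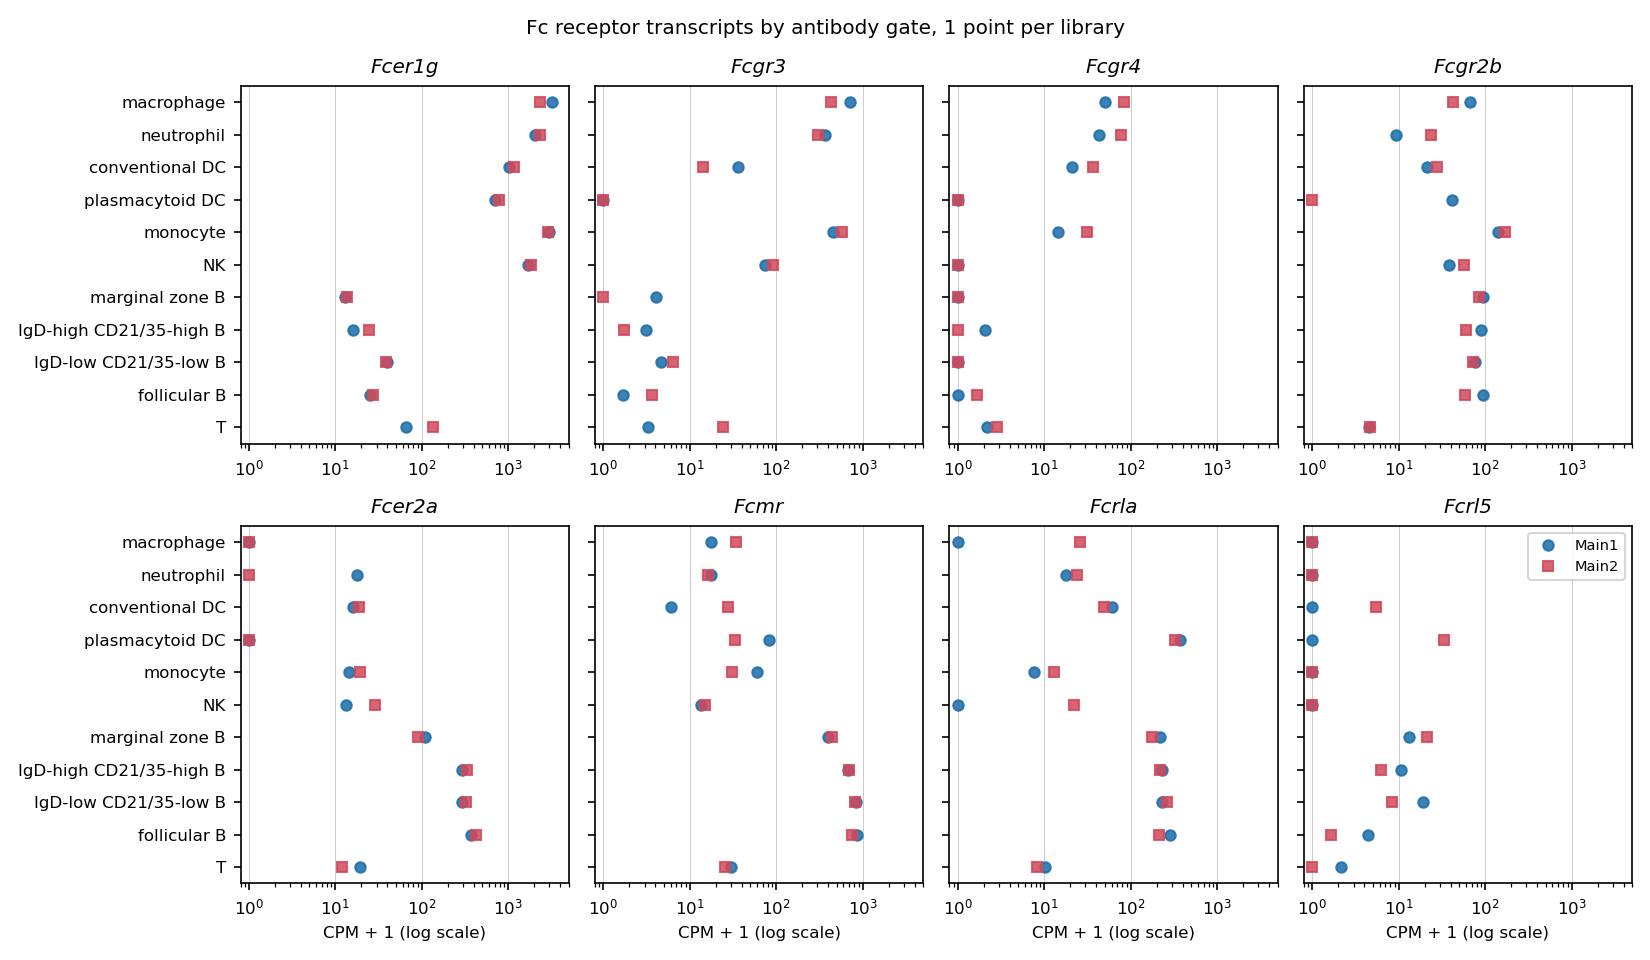
Level of each of the 8 genes in every gate, as CPM + 1 on a logarithmic scale, with 1 point for each library (Main1 and Main2). Fcer1g, Fcgr3 and Fcgr4 are high in the macrophage, neutrophil and monocyte rows, with Fcgr3 at 709 and 435 CPM in macrophages and 0.688 and 2.66 CPM in follicular B cells, while Fcer2a and Fcmr are high in the B rows and Fcrla in the B and plasmacytoid DC rows.

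Fcgr2b, the inhibitory receptor CD32, was the member shared by B cells and monocytes. Its level was 139 and 169 CPM in monocytes and 94.3 and 57.9 CPM in follicular B cells. Both monocyte libraries lay above those of all other gates. Marginal zone B (93.9 and 83.9 CPM), IgD-high CD21/35-high B (87.4 and 58.5 CPM) and IgD-low CD21/35-low B (75.8 and 71.7 CPM) lay within the follicular range, and in none of these 3 gates did the difference from follicular B pass edgeR's test (log2 fold changes 0.37, -0.06 and 0.02, adjusted p = 0.339, 0.988 and 0.995). The other gates were lower or thinly counted. Macrophages had 66.0 and 41.0 CPM (4 and 5 UMIs), NK cells 37.0 and 56.2 CPM (3 and 8 UMIs), conventional DC 20.1 and 26.6 CPM (4 and 6 UMIs) and neutrophils 8.41 and 22.9 CPM (1 and 3 UMIs), and plasmacytoid DC had 1 UMI in 20 droplets. T cells, at 3.48 and 3.62 CPM and with a UMI in 1.02% of droplets, were below every B gate, where 11.8% to 18.3% of droplets had one.

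Compared with follicular B cells, Fcgr2b rose in monocytes (log2 fold change 0.99, SE 0.262, edgeR adjusted p = 0.00314) and fell in conventional DC (-1.71, SE 0.408, adjusted p = 0.00107) and in neutrophils (-1.90, SE 0.608, adjusted p = 0.0175). In NK cells (-0.90, adjusted p = 0.209) and macrophages (-0.73, adjusted p = 0.343) it did not pass, but it did in macrophages of the matching RNA class (-3.12, adjusted p = 0.0147) and in NK cells gated at 3 or more NKp46 counts (-1.51, adjusted p = 0.00335). Thinning to 1000 UMIs ended the calls in monocytes (adjusted p = 0.143) and conventional DC (adjusted p = 0.217), and the neutrophil call ended under 4 of 10 alternatives, DESeq2 among them. Among myeloid gates set against monocytes, Fcgr2b fell in neutrophils (-2.89, SE 0.600, adjusted p = 3.38e-04), conventional DC (-2.70, SE 0.450, adjusted p = 9.80e-06) and macrophages (-1.72, SE 0.489, adjusted p = 0.0255). The macrophage call ended under 4 of 9 alternatives, and the neutrophil call (adjusted p = 0.210) and conventional DC call (adjusted p = 0.0564) ended after thinning.

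The share of Fcgr3 in the UMIs of the activating and inhibitory receptor differed by gate. Of the UMIs of Fcgr3 and Fcgr2b together, Fcgr3 made up 95.5% in neutrophils (95% exact binomial interval 88.8 to 98.8%), 91.4% in macrophages (84.4 to 96.0%), 77.0% in monocytes (70.8 to 82.5%), 63.3% in NK cells (43.9 to 80.1%) and 50% in conventional DC (27.2 to 72.8%), against 2.18% in follicular B cells (0.713 to 5.02%). The other B gates lay between 1.02% in marginal zone B and 5.92% in IgD-low CD21/35-low B cells. The intervals cover counting error only. By library the share was 97.8% and 93.0% in neutrophils and 91.5% and 91.4% in macrophages, all above the 76.7% and 77.2% of monocytes, while the 63.6% and 33.3% of conventional DC lay below. Of the droplets with Fcgr2b, 22 of 32 monocyte and 6 of 9 macrophage droplets also held Fcgr3, or 68.8% and 66.7%, beside 67.4% and 61.0% of all droplets of those gates. The shares were further apart in NK cells, with 5 of 8 Fcgr2b droplets (62.5%) beside 13.01% of all droplets. T cells had 4 of 6 (66.7%) beside 2.21%. Neutrophils had 3 of 3 beside 65.8%, and conventional DC 0 of 10 beside 5.84%. In the B gates Fcgr3 was rare in all droplets. It was seen in 5 of 239 Fcgr2b droplets in IgD-low CD21/35-low B (2.09%), beside 0.744% of all droplets of that gate. Follicular B had 1 of 199 (0.5025%, beside 0.297%). Marginal zone B had 0 of 83 (beside 0.220%) and IgD-high CD21/35-high B 0 of 143 (beside 0.379%). These shares rest on few droplets and were not tested.

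**Figure D2:**
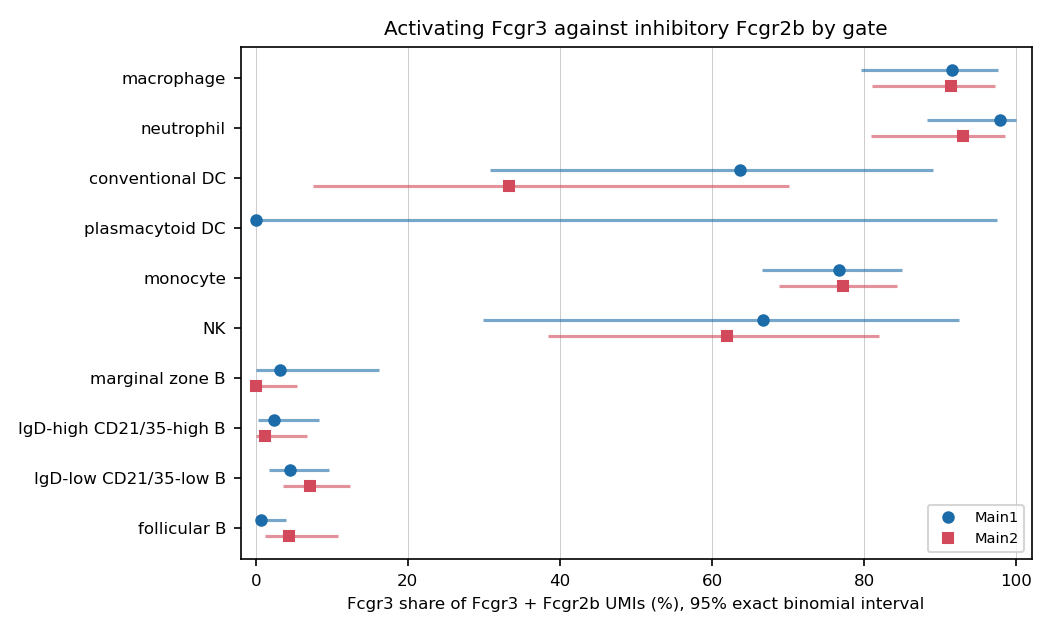
Share of Fcgr3 among the UMIs of Fcgr3 and Fcgr2b in each gate, in percent, with 1 point per library and 95% exact binomial intervals, which cover counting error only. Neutrophils (97.8% and 93.0%) and macrophages (91.5% and 91.4%) sit furthest right, monocytes at 76.7% and 77.2%, and the B gates at the left. Plasmacytoid DC of Main2 have no point because neither gene had a UMI there.

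Of the genes of B lineage cells, Fcer2a divided the B gates most clearly. It encodes CD23, long used as a marker of follicular B cells, and was at 109 and 89.0 CPM in marginal zone B cells, 292 and 337 CPM in IgD-high CD21/35-high B cells and 292 and 325 CPM in IgD-low CD21/35-low B cells, against 372 and 420 CPM in follicular B cells. Both marginal zone libraries were below all other B libraries, and both follicular libraries were above them. Marginal zone B cells fell by 1.95 on the log2 scale (SE 0.157, edgeR adjusted p = 2.24e-14). The smaller differences in IgD-high CD21/35-high B (-0.31, SE 0.112, adjusted p = 0.415) and IgD-low CD21/35-low B cells (-0.31, SE 0.107, adjusted p = 0.215) did not pass, though both did in a fit of only the 2 gates compared (adjusted p = 0.00426 and 0.0133). Outside the B gates Fcer2a had no more than 28.1 CPM. Its share of droplets with a UMI there was at most 5.26%, close to the 4.76% of T-gate droplets, and was read as background. Macrophages had 0 UMIs in 77 droplets, at least 24.1-fold below follicular B cells by a floor of 3 UMIs over both libraries.

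Fcmr, the IgM receptor gene, was also lowest in marginal zone B cells among the B gates, with a narrower step. Marginal zone B cells had 394 and 436 CPM and IgD-high CD21/35-high B cells 677 and 689 CPM, against 848 and 748 CPM in follicular B cells. IgD-low CD21/35-low B cells, at 835 and 819 CPM, lay within the follicular range, and the other 2 gates lay below it. The marginal zone log2 fold change was -0.82 (SE 0.158, edgeR adjusted p = 2.19e-04), and that of IgD-high CD21/35-high B cells did not pass (-0.20, adjusted p = 0.882). In follicular B cells 560 of 777 droplets with Fcer2a also held Fcmr (72.1%), beside 69.7% of all droplets of that gate, so this count says nothing of pairing within a droplet. Over follicular B the Fcmr log2 fold change was -4.21 in monocytes, -5.004 in macrophages, -5.30 in neutrophils, -5.62 in conventional DC and -6.19 in NK cells, all past the test. The non-B levels, between 5.03 CPM (conventional DC, Main1) and 81.8 CPM (plasmacytoid DC, Main1, 2 UMIs), lay on both sides of the 28.98 and 24.4 CPM of T cells.

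Fcrla did not divide the B gates. It was at 218 and 174 CPM in marginal zone B, 227 and 216 CPM in IgD-high CD21/35-high B and 229 and 264 CPM in IgD-low CD21/35-low B cells, against 283 and 214 CPM in follicular B cells. The libraries of each of the 3 gates overlapped or touched the follicular range, and the marginal zone log2 fold change of -0.26 did not pass (edgeR adjusted p = 0.419). Plasmacytoid DC, at 368 and 325 CPM, lay above every B library, from 9 and 10 UMIs in 9 and 11 droplets, and 1 droplet gave 55.6% of the Main1 UMIs. With fewer than 10 droplets in Main1, that gate was not tested. Conventional DC had 60.4 and 48.7 CPM, below follicular B (log2 fold change -2.23, SE 0.266, adjusted p = 6.92e-10) and above the 6.64 and 12.1 CPM of monocytes (2.50, SE 0.740, adjusted p = 0.0237). The last call ended under 4 of 8 alternatives, one of them keeping only droplets of the matching RNA class. Over follicular B the Fcrla log2 fold change was -3.29 in neutrophils, -4.04 in macrophages, -4.49 in NK cells and -4.73 in monocytes.

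Fcrl5 was rare and lowest, among B cells, in the follicular gate. Marginal zone B cells had 12.1 and 20.3 CPM (4 and 16 UMIs), IgD-low CD21/35-low B cells 18.1 and 7.47 CPM (30 and 15 UMIs) and IgD-high CD21/35-high B cells 9.59 and 5.18 CPM (9 and 7 UMIs), against 3.44 and 0.666 CPM (5 and 1 UMIs) in follicular B cells. All 6 libraries lay above the follicular ones, and the IgD-low libraries overlapped with those of both other gates. A UMI was present in 4.19% of marginal zone droplets and 0.297% of follicular droplets, against 0.170% of T droplets, at median depths of 2139.5, 1552 and 2447.5 UMIs. The rise was 3.29 in marginal zone B (SE 0.693, edgeR adjusted p = 8.39e-04) and 2.57 in IgD-low CD21/35-low B (SE 0.599, adjusted p = 0.0105), while IgD-high CD21/35-high B did not pass (1.78, SE 0.727, adjusted p = 0.552). The IgD-low call ended without the library as a replicate block (adjusted p = 0.0719). No Fcrl5 UMI was found in NK cells, monocytes, neutrophils or macrophages, which allows shares of up to 2.44%, 3.16%, 4.11% and 3.90% of droplets with one.

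Clusters of the RNA, made without these 8 genes, placed Fcrl5 mainly in a pair of B-like groups. A cluster of 313 droplets led by Bhlhe41 and holding Zbtb32 among its leading genes had 59.5 and 35.7 CPM of Fcrl5, and a cluster led by Cr2, which encodes CD21/35, had 14.2 and 22.2 CPM. Each other B-like cluster was at 16.6 CPM or less in each library. The Bhlhe41 cluster had 75.6 and 81.7 CPM of Fcer2a but 895 and 960 CPM of Fcmr. The Cr2 cluster had 144 and 80.4 CPM of Fcer2a and 482 and 432 CPM of Fcmr, near the values of the marginal zone gate. These cluster levels are descriptions with no test.

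Counted together, most of the 8 genes differed between non-B gates and follicular B cells and few among B gates. All 8 passed the filter of 50 UMIs over all gates. Over follicular B cells, 7 of 8 passed at an adjusted p under 0.05 in monocytes (21.9% of all 9354 genes), 7 in neutrophils (20.4%), 7 in conventional DC (18% of all genes), 6 in macrophages (15.8%) and 5 in NK cells (11.2%). The calls were 4 higher and 3 lower in monocytes, 3 and 4 in neutrophils and conventional DC, 3 and 3 in macrophages, and 2 and 3 in NK cells. Among B cells, 3 of 8 passed in marginal zone B (6.21% of genes), 1 in IgD-low CD21/35-low B (1.24%) and 0 in IgD-high CD21/35-high B (0.171%), where edgeR gave 2 members an unadjusted p under 0.05 and DESeq2 also called 0. Against monocytes, 1 of 8 passed in neutrophils (8.48%), 1 in macrophages (4.32%) and 4 in conventional DC (7.49%). The median log2 fold change of all genes over follicular B was -0.02 in marginal zone B, and in non-B gates ran from -0.52 in neutrophils to -0.12 in conventional DC, and from -0.27 in neutrophils to 0.11 in conventional DC over monocytes.

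**Figure D3:**
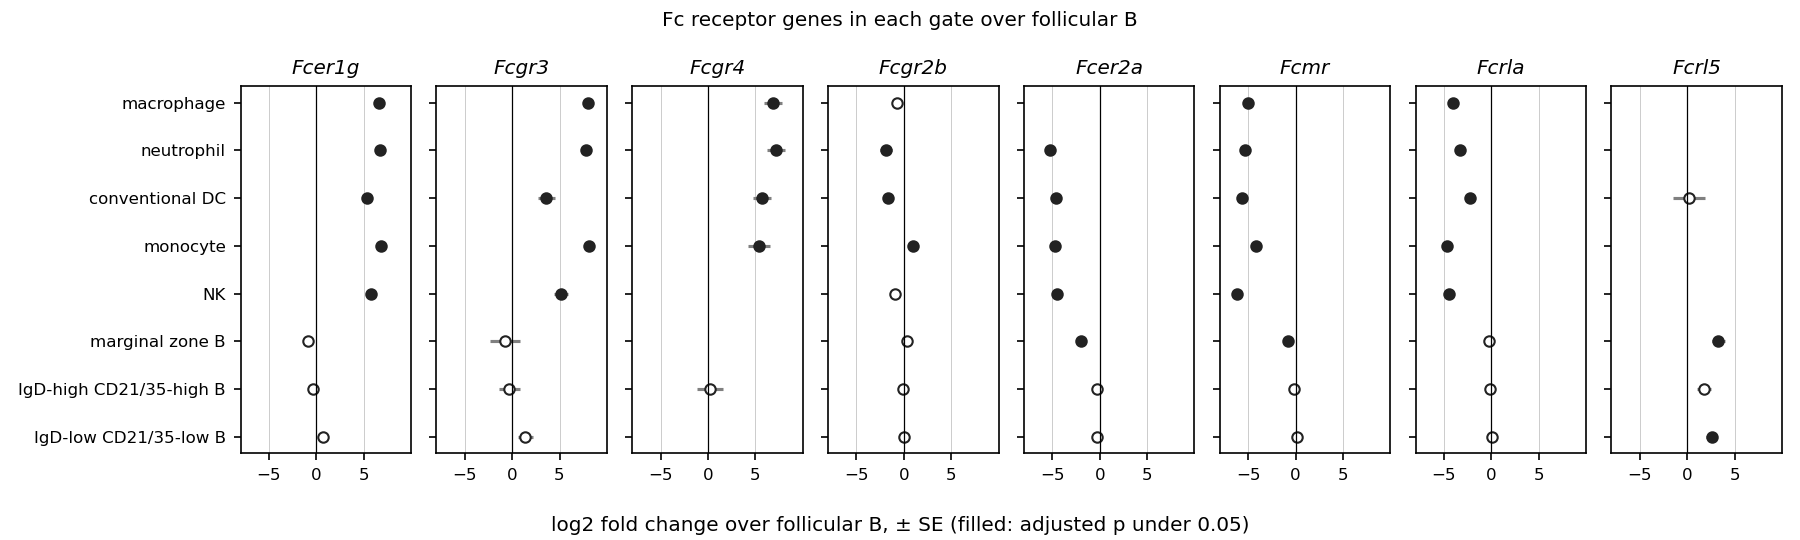
edgeR log2 fold change of each gene in every tested gate over follicular B cells, with standard errors, filled where the adjusted p was under 0.05. Pairs with 0 UMIs in either group are not drawn. Fcer1g and Fcgr3 lie right of 0 in the 5 non-B gates (6.82 and 8.06 in monocytes), Fcer2a, Fcmr and Fcrla left of 0 there, and Fcgr2b on both sides.

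Genes that work with these receptors were counted from 4 lists chosen with earlier results of these data known. Of 7 signal adaptors, all tested, 3 were higher and 2 lower in NK cells than in follicular B cells (11.2% of all genes called). Their median log2 fold change was 0.59 (all genes -0.22). In monocytes 1 was higher and 2 lower (21.9% of all genes called), with a median of -0.84 (all genes -0.31). Tyrobp, which encodes DAP12, the other ITAM adaptor of myeloid and NK cells, rose by 6.10 in monocytes, 5.83 in neutrophils, 5.49 in macrophages, 5.22 in conventional DC and 5.00 in NK cells. Hcst, the adaptor DAP10, rose in NK cells (2.64) and neutrophils (2.44), and Cd247, the zeta chain that pairs with CD16 in human NK cells, rose in NK cells (4.81). The B cell receptor adaptors Cd79a and Cd79b fell in all 5 non-B gates. These gates were drawn from droplets negative for the CD79b antibody and the B gates from positive ones. The fall of these 2 genes thus follows from the gating and is not a separate result, though it counts among the lower genes. In marginal zone B cells Hcst (1.106, edgeR adjusted p = 1.07e-06) and Tyrobp (0.80, adjusted p = 0.0241) rose over follicular B. There 2 of 7 were higher and 0 lower (6.21% of all genes called), with a median of -0.22 (all genes -0.02). Fcer1g itself had 12.1 and 12.7 CPM there and did not pass (-0.91, adjusted p = 0.184), except with gates on the log-ratio within each droplet (-1.32, adjusted p = 0.00569).

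Of a list of 12 other Fc receptor and related genes 5 were tested. In macrophages 2 were higher and 1 lower than in follicular B cells (15.8% of all genes called, median -1.44, all genes -0.39). The higher ones were Clec4n, the gene of dectin-2, a lectin that binds glycans and not antibody but signals through the gamma chain (7.82, SE 0.446, edgeR adjusted p = 1.77e-21), and Fcgrt, the neonatal Fc receptor that recycles IgG (3.83, SE 0.334, adjusted p = 2.76e-14). Both were also higher in macrophages than in monocytes, by 4.78 and 1.21. Fcrl1, a B cell relative of Fcrl5, was the lower gene in macrophages and fell in all 5 non-B gates, with log2 fold changes between -2.61 in neutrophils and -4.53 in monocytes. Fcgrt was lower in marginal zone B than in follicular B cells (-3.09, SE 0.724, adjusted p = 0.00280), the 1 call among the 5 (6.21% of all genes called).

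The kinases and linkers downstream of activating receptors did not move one way. Of 16 tested of 18, 5 were higher and 5 lower in monocytes over follicular B (21.9% of all genes called, median 0.11, all genes -0.31). Among them the Src family kinase Fgr (3.89) and the linker Lcp2 (4.45) were higher, and the B cell linker Blnk (-5.15) and Btk (-1.24) lower. The counts were 4 higher and 3 lower in neutrophils (20.4% of all genes called), 3 and 6 in macrophages (15.8%), 4 and 6 in conventional DC (18% of all genes) and 1 and 5 in NK cells (11.2%). Inhibitory receptors and phosphatases exchanged members: of 14 tested of 16, 4 were higher and 5 lower in monocytes (21.9% of all genes called, median -0.79). Cd300a (7.93), Sirpa (7.37) and Clec4a2 (6.58) were higher and Siglecg (-6.01), Cd22 (-5.19) and Cd72 (-4.25) lower. In the IgD-high CD21/35-high gate 0 members of the 4 lists passed edgeR's test, where 0.171% of all genes passed.

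The CD16/32 antibody counted highest in macrophages and neutrophils, then in IgD-high CD21/35-high B cells and monocytes, and lowest in T and NK cells. The median count per droplet was 207 and 143.5 in macrophages, 187 and 153.5 in neutrophils, 158.5 and 104 in monocytes, 56 and 52 in plasmacytoid DC, 50 and 44 in conventional DC and 36 and 34.5 in NK cells, against 34 and 32 in T cells. Among B cells the medians were 169 and 118 in IgD-high CD21/35-high B, 121.5 and 96 in marginal zone B and 77 and 60 in IgD-low CD21/35-low B, against 92 and 71 in follicular B. Main1 was above Main2 in every gate, and within each library the 3 myeloid gates lay above follicular B, conventional DC, plasmacytoid DC, NK and T cells.

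Droplets differ in how much of any antibody they hold, so the tag was also taken as a share of all antibody counts of a gate. IgD-high CD21/35-high B droplets held a median of 5946 and 5236.5 counts of the other antibodies, against 3575 and 3045.5 in follicular B droplets. As a share, CD16/32 made up 2.81% and 2.34% there, 3.58% and 3% in marginal zone B and 3.18% and 2.75% in IgD-low CD21/35-low B, against 2.59% and 2.37% in follicular B cells. The order of IgD-high CD21/35-high B and follicular B thus differed between libraries on this scale, whereas marginal zone B was above follicular B on both scales. NK droplets held 874 and 1124.5 counts of other antibodies, and CD16/32 made up 4.595% and 2.96% of their counts, against 0.803% and 0.837% in T cells, which held 3563 and 3888. Macrophages reached 6.94% and 4.65%, neutrophils 4.39% and 3.58%, monocytes 4.23% and 2.57% and conventional DC 1.97% and 1.76%.

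**Figure D4:**
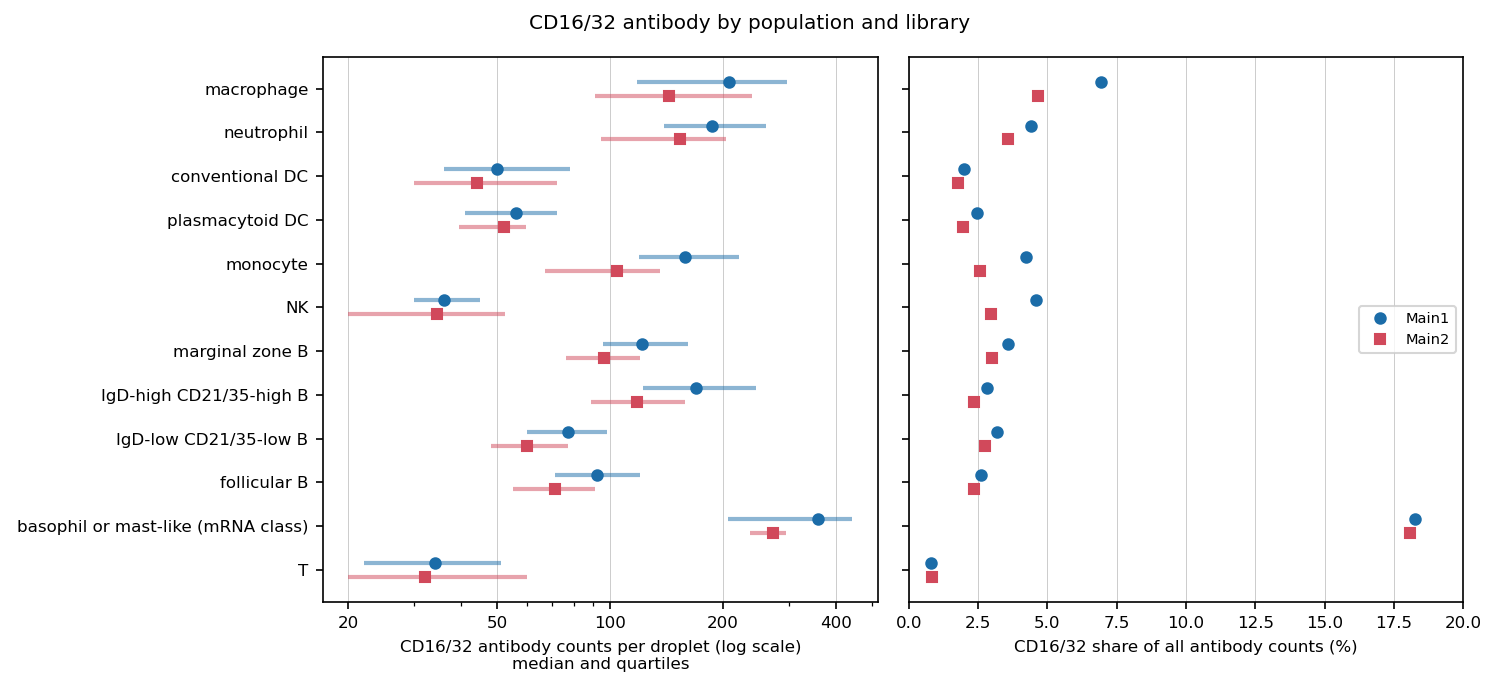
CD16/32 antibody in each gate and library. Left, the median count per droplet with quartiles on a logarithmic scale, from 207 and 143.5 in macrophages to 34 and 32 in T cells. Right, its share of all antibody counts in percent, from 6.94% and 4.65% in macrophages to 0.803% and 0.837% in T cells. The row of basophil or mast-like droplets is an RNA class of 11 and 6 droplets, at medians of 358 and 271.5.

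The gates with the highest CD16/32 medians among non-B cells were those with the most Fcgr3. In B cells nearly all of the summed Fcgr3 and Fcgr2b UMIs were Fcgr2b. Their counts were intermediate except in IgD-high CD21/35-high B, whose medians (169 and 118) lay above those of monocytes (158.5 and 104). NK cells, with 84.99 CPM of Fcgr3 and 49.2 CPM of Fcgr2b over both libraries, had a median of 36 counts, against 80 in follicular B cells with 1.69 and 75.8 CPM. As a share of antibody counts the order turned, with 3.49% in NK cells and 2.48% in follicular B cells. Over all 7097 droplets Spearman's rho between CD16/32 counts and the summed Fcgr2b and Fcgr3 UMIs was 0.216, 0.254 in Main1 and 0.182 in Main2. Droplets share depth and cell size: CD16/32 had a rho of 0.581 with the other antibodies and 0.323 with total UMIs. After thinning to 1000 UMIs rho was 0.117, and with CD16/32 relative to the other antibodies it was 0.143. These are descriptions over droplets, which are not replicates.

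**Figure D5:**
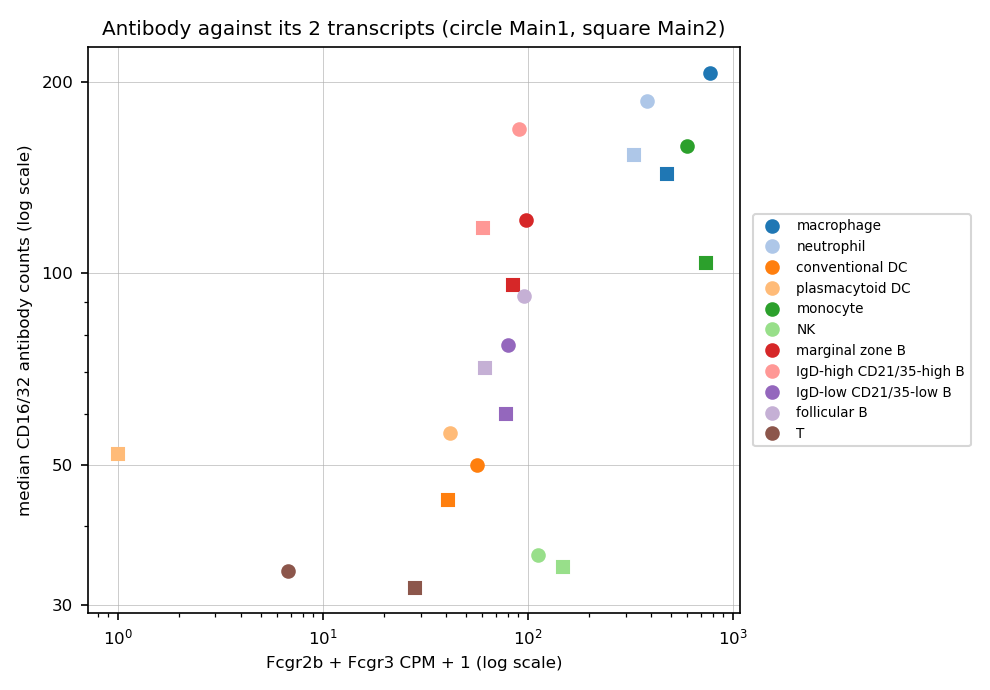
Median CD16/32 count per droplet against the summed level of Fcgr2b and Fcgr3 (CPM + 1), both on logarithmic scales, with 1 point for each gate and library (circles Main1, squares Main2). Macrophages, neutrophils and monocytes lie upper right, with medians of 104 to 207, T cells at the bottom, and NK cells low on the antibody axis at 36 and 34.5.

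Within gates the relation varied in size. For the summed RNA, rho was 0.316 in 95 monocyte, 0.300 in 137 conventional DC, 0.230 in 123 NK and 0.195 in 791 IgD-high CD21/35-high B droplets, against 0.218 in 588 T droplets, and CD16/32 had a rho with total UMIs of 0.624 in T, 0.571 in IgD-high CD21/35-high B, 0.267 in conventional DC, 0.129 in monocyte and -0.154 in NK droplets. It was 0.077 in follicular B, 0.072 in IgD-low CD21/35-low B, 0.057 in marginal zone B, 0.034 in neutrophil and -0.027 in macrophage droplets. Ranked among 9860 genes by rho with CD16/32 over all droplets, Fcgr3 was 243rd and Fcgr2b 287th. Fcmr ranked 159th, Fcrla 228th, Fcer2a 343rd, Fcer1g 1660th, Fcrl5 1712th and Fcgr4 1959th. The 5 highest were Cd74 (0.386), H2-Aa (0.371), Fth1 (0.369), Fau (0.367) and H2-Eb1 (0.358), which are genes of antigen presentation, iron storage and the ribosome. These ranks moved with the scaling. With CD16/32 relative to the other antibodies, rho was 0.1275 for Fcgr3, 0.1265 for Cd74, -0.0224 for Fth1 and -0.1139 for Fau. After thinning it was 0.1229 for Fcgr3 and 0.0922 for Cd74, with H2-Eb1 at 0.1558.

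Droplets of each gate and library were ranked by CD16/32 given the other antibodies and cut into 3 equal parts, and the highest part (CD16/32-high) was compared with the lowest (CD16/32-low). In follicular B cells the division set medians of 124 and 96 counts against 68 and 51.5. Across the 4 B gates, with 1644 droplets on each side, Fcgr2b had 96.7 and 67.8 CPM in CD16/32-high droplets and 71.6 and 65.2 CPM in CD16/32-low droplets. The high side was above the low side in both libraries, by 0.23 on the log2 scale (SE 0.151), which did not pass edgeR's test (adjusted p = 0.777). Fcgr3 had 13 UMIs on the high side and 8 on the low side and was too sparse to test. Fcer2a had 251 and 297 CPM against 329 and 344 CPM (-0.31, SE 0.090, adjusted p = 0.134), Fcmr 726 and 662 CPM against 837 and 739 CPM (-0.21, SE 0.067, adjusted p = 0.231), and Fcrl5 16.9 and 10.2 CPM against 8.51 and 4.46 CPM (1.02, SE 0.384, adjusted p = 0.420). Of the 6 members tested, 0 passed (0.395% of 7601 genes passed), with 3 at an unadjusted p under 0.05, and DESeq2 called 1, Fcer2a.

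Across the 4 myeloid gates, with 125 droplets on each side, Fcgr3 had 322 and 194 CPM in CD16/32-high droplets and 270 and 285 CPM in CD16/32-low droplets, higher in Main1 and lower in Main2 (log2 fold change 0.03, SE 0.324, edgeR adjusted p = 0.9997). Fcgr2b had 67.5 and 70.9 CPM against 67.5 and 72.5 CPM. Its log2 fold change of 0.19 (SE 0.460), from the fit with gate and library as terms, has the opposite sign to these sums over gates in Main2, and is smaller than its SE. Fcer1g had 2025 and 1772 CPM against 1933 and 2117 CPM (-0.08, SE 0.213). In macrophages the antibody medians of the divided droplets were 384 and 290.5 against 118 and 78. By edgeR 0 of the 3 members tested passed (0.552% of 1994 genes passed), with 0 at an unadjusted p under 0.05, and DESeq2 called 0. The sides differed in depth, most in neutrophils of Main2, with a median of 5720.5 UMIs per droplet on the high side and 1902 on the low side, and its part in these values was not tested.

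The genes most alike each member were ranked by Pearson's r of log2(CPM + 10) over 20 points, the 10 gates with enough droplets in both libraries, among 5942 genes. The points share libraries and gates, and B gates were drawn with IgD, so r is a description. For Fcer1g the first was Tyrobp (0.985), then Anxa2 and Serf2. Fcgr3 was most like Itm2b (0.963), Cd44 and Msrb1, and Fcgr4 most like Mpc2 (0.945), Pirb and Clec12a. Fcgr2b had no gene above 0.893 (Serinc3), followed by Ctsc and Notch2, and is the member high in both B cells and monocytes. Fcer2a was most like Ighd (0.969), the IgD heavy chain gene, Pxdc1 and Mapk12, Fcmr most like Il12a (0.988), Iglc2 and Ms4a1, and Fcrla most like Iglc3 (0.971), Trim7 and Snn. Fcrl5 had Il9r (0.851), Gm4610 and Bcl7a.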

How the data were processed

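Spleen RNA and 30 antibody tags were counted per droplet. The deposited values are whole-number counts (UMIs per gene, and tag counts per antibody) with no normalization, from files of the whole series; bcl2fastq, Cell Ranger 3.0.2 and mm10 are named in the submitters' processing notes, and the sources used here do not name a counter for the tags. Every gene in the table has a UMI in at least 15 droplets. The members and lists were chosen with earlier results of these data known.

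Gates used Gaussian mixtures on log antibody counts, centred over droplets for each antibody (posterior above 0.5), with NKp46 at 5 or more counts. That scale does not correct for the total antibody counts of a droplet. The log-ratio within each droplet was an alternative. All droplets were kept and no doublet caller was run; an alternative kept droplets under 4000 UMIs. UMIs were summed per library and gate and fitted with edgeR 4.0.16 (TMM, quasi-likelihood test, library as block, genes with 50 or more UMIs, Benjamini-Hochberg over 9354 genes, 20 sums, 9 residual degrees of freedom) in R 4.3.3. Fits on CD16/32-high and CD16/32-low droplets used 16 sums and 10 residual degrees of freedom. Both libraries hold every gate, which pairs them by construction. DESeq2 1.42.0 was an alternative. Clusters came from scanpy 1.11.5 (Leiden, 30 components, 15 neighbours, resolution 1). The edgeR fit over gates was checked on simulated counts for monocytes over follicular B alone, with a fixed dispersion and no library effect. That check did not cover the fits on CD16/32-high and CD16/32-low droplets or changes in genes with few UMIs. All 8 members are described in every gate; the 3 most alike genes of each and the 5 genes of highest rho with CD16/32 were named by rank, and list genes by the 3 smallest adjusted p in each direction, of which 1 gene is not reported here. Intervals are exact binomial at 95%, and the floor of a count of 0 is 3 UMIs. Plasmacytoid DC were not tested, with under 10 droplets in Main1. No other columns were left out (0). Total UMIs per library set the precision: a gate of 60646 UMIs (macrophages, Main1) has a floor of 49.5 CPM, and one of 1453510 UMIs (follicular B, Main1) 2.06 CPM.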

Additional observations from a re-analysis of the deposited data

Results flagged for a closer look

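The values here belong to groups of droplets that were not compared as such, and each is above the T gate. Droplets of an RNA cluster with basophil or mast cell markers, 11 in Main1 and 6 in Main2, of which 10 were in no gate and 5 in the macrophage gate, had a median CD16/32 count of 279, against 33 in T-gate droplets. CD16/32 made up 18.3% and 18.1% of all antibody counts in them, above every gate. This share also depends on the other antibodies. These droplets held a median of 1060 counts of them, against 3301 in the macrophage gate and 997 in the NK gate. Their Fcgr3 level was 688 CPM (23 UMIs), against 14.2 CPM in the T gate, and their Fcer1g level was 2750 CPM, against 104 CPM in the T gate. Of their Fcgr3 and Fcgr2b UMIs 88.5% were Fcgr3 (95% exact binomial interval 69.9 to 97.6%, counting error only).

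Plasmacytoid DC, too few to test, held Fcrla at 344 CPM (19 UMIs in 20 droplets), against 8.13 CPM in the T gate. Their Fcer1g level was 743 CPM, against 104 CPM in the T gate. The largest single droplet gave 26.3% of these Fcrla UMIs and 14.6% of the Fcer1g UMIs. These droplet groups were chosen after their values were seen, and no difference was tested.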

How the results depend on the processing

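Of 1029 values of single genes under alternatives, 1000 were counted as unchanged, 18 kept the direction but no longer passed and 10 newly passed. The other 1 was a called gene that changed sign: Fcgr3 in conventional DC over follicular B after thinning to 1000 UMIs (-2.77 on the log2 scale, with 0 UMIs left in the gate). Unchanged means the same side of the threshold, and direction was compared only for genes called in the fit reported. Sign changes of genes not called are thus among the 1000. Values of 1 library alone have no threshold and counted as unchanged unless a called gene changed sign. The number of the 8 genes called moved by more than 1.5 times as follows. With thinning it was 0 in IgD-low CD21/35-low B, 4 in conventional DC over follicular B, 0 in neutrophils over monocytes, 0 in macrophages over monocytes and 2 in conventional DC over monocytes. With only the 2 gates in the fit it was 2 in IgD-high CD21/35-high B, 2 in IgD-low CD21/35-low B and 0 in macrophages over monocytes. With gates on the log-ratio within each droplet it was 2 in IgD-low CD21/35-low B and 0 in macrophages over monocytes. With DESeq2 it was 0 in IgD-low CD21/35-low B, 0 in macrophages over monocytes and 1 in CD16/32-high over CD16/32-low B cells, and with droplets under 4000 UMIs it was 2 in that comparison. Restricted to droplets of the matching RNA class, Fcgr2b newly passed in macrophages over follicular B (-3.12). Smaller moves over follicular B were 2 to 4 in marginal zone B (3 reported), 4 to 6 in NK cells (5), and down to 5 in monocytes (7), neutrophils (7) and macrophages (6). The cause of these changes was not tested, except that thinning leaves fewer UMIs.

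Without the replicate block for library, 0 of the 8 genes were called in IgD-low CD21/35-low B, where Fcrl5 had an adjusted p of 0.0719, and the block changed no other member's call. In each library alone every called gene kept its direction. The Spearman rho of 0.216 was 0.182 to 0.254 in 1 library, 0.1174 after thinning and 0.1433 relative to the other antibodies. Counts of calls over all genes moved by more than 1.5 times at the extremes. Thinning gave 269 in marginal zone B (581 in the fit reported), 945 in monocytes (2047), 810 in conventional DC (1681), 322 in neutrophils over monocytes (793) and 227 in conventional DC over monocytes (701). Only the 2 gates in the fit gave 299 in IgD-high CD21/35-high B (16), 291 in IgD-low CD21/35-low B (116), 858 in neutrophils (1906), 878 in macrophages (1482) and 121 in macrophages over monocytes (404), which matching RNA classes put at 690. DESeq2 gave 10 in IgD-low CD21/35-low B, and no block gave 349 in marginal zone B, 3 in IgD-high and 49 in IgD-low CD21/35-low B. CD16/32-high over CD16/32-low had 11 to 53 calls in B cells (30) and 0 to 34 in myeloid cells (11). Few UMIs of Fcrl5, Fcgr4 and non-B Fcgr2b set the limits of these data.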

Other observations

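Fcgr4 levels are given here for monocyte-like droplets outside and inside the antibody gate for monocytes, a division chosen after the values were seen and not tested. The RNA clustering called 171 droplets monocyte-like, 84 inside the gate with 257096 UMIs in all and 87 outside it with 369422. Of those outside, 40 were in no gate, 18 in the conventional DC, 12 in the macrophage and 10 in the T gate. The neutrophil gate held 4, IgD-low CD21/35-low B 2 and NK 1. Whether some are doublets was not tested. In the 87 outside the gate Fcgr4 had 111 and 103 CPM in Main1 and Main2 (39 UMIs, in 21.8% of droplets), and in the 84 inside it 14.9 and 40.7 CPM (7 UMIs, in 8.33% of droplets). Fcgr3 was lower outside in both libraries, with 391 and 350 CPM outside and 514 and 732 CPM inside, and Fcgr2b had 103 and 72.6 CPM outside and 142 and 228 CPM inside. The droplets outside held less Ly6C antibody, which the gate uses (medians 493 and 758 outside, 1867 and 2495 inside), and less Ly6c2 RNA (1100 and 1111 CPM outside, 1558 and 2969 CPM inside). Cd300e, a marker of patrolling monocytes, had 59.1 and 29.9 CPM outside and 0 UMIs inside. Ace, another such marker, had 244 and 137 CPM outside and 142 and 89.5 CPM inside. The CD16/32 median was 207 and 153.5 outside and 166 and 104 inside.

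A cluster of 299 B-like droplets led by Vpreb3, a gene of immature B cells, had 384 and 453 CPM of Fcrla, above the 214 to 283 CPM of the follicular libraries, and its Fcgr2b stood at 118 and 81 CPM.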
